A study of Mus musculus with 6 samples.

Results

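The genes of respiratory complex I were followed in the hippocampus of mice that carry extra glutamate dehydrogenase 1 (Glud1), the mitochondrial enzyme that interconverts glutamate and 2-oxoglutarate. All genes whose annotated symbol starts with Nduf were taken, each at its brightest probeset among those annotated to 1 gene. This gave 44 of 13854 genes, made up of 34 complex I subunits, 8 Ndufaf assembly factors, and Ndufa4 and Ndufa4l2, and all 44 passed the filter on low signals. The symbols are covered by 88 single-gene probesets, of which 85 were kept, and by 10 probesets shared with other genes, which were left out of the gene values. The Tg mice carry a Glud1 transgene whose Nse (neuron-specific enolase) promoter restricts it to neurons. The 3 Tg mice were set against 3 wt mice. All 6 were 9 months old, male and untreated, of the C57BL/6 background, and each gave 1 Affymetrix Mouse Genome 430 2.0 array of total RNA from homogenized hippocampus. The deposited values are MAS5 signals, linear intensities per probeset with about the same trimmed mean on all 6 arrays.

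Complex I is the entry point of the respiratory chain. It takes electrons from NADH in its matrix arm, passes them along a flavin and a row of iron-sulphur clusters to ubiquinone, and pumps protons through its membrane arm. Neurons depend heavily on this oxidative supply of ATP. The catalytic core subunits are encoded partly by mitochondrial DNA and partly in the nucleus, the accessory subunits are all nuclear, and assembly factors put the modules together without staying in the finished enzyme. Ndufa4 carries an Nduf symbol but belongs to cytochrome c oxidase, and Ndufa4l2 is its paralog. Both are therefore given apart.

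The array-wide values that bear on these genes were as follows. Glud1 itself had a signal of 5115.6 to 5595.7 in Tg and 5647.3 to 6383.3 in wt mice at its brightest probeset. It is not known whether that probeset reads the transgene. All 10 markers of dentate granule cells and 5 of 6 of CA1 pyramidal cells passed the filter. The 18S ribosomal RNA control, a measure of RNA that is not messenger, had a signal of 975.5 to 3312.8 on the Tg arrays, 13960.1 on wt 1, 10375.2 on wt 2 and 2286.5 on wt 3, so wt 1 and wt 2 stood apart from the other 4 arrays. The ratio of the 3′ to the 5′ Actb control probesets was 1.64 to 1.69 in Tg and 1.70 to 1.95 in wt mice. In limma, 0 of 31076 kept probesets were called at an adjusted p under 0.05 (percent called 0). At an unadjusted p under 0.05, 1837 probesets were higher and 1174 lower in Tg mice, and Cyber-T, the other test run, called 65 (0.209%). None of those 65 was the brightest probeset of an Nduf gene.

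The complex I subunits gave slightly lower signals in Tg than in wt mice, without a call for any of them. Of the 34 subunits, 29 were lower in Tg mice, with a median log2 fold change of -0.08 (a difference of -5.68%), against 55.9% of all 13854 genes lower and a median of -0.03. The single values ran between -0.28 for Ndufs7 and 0.12 for Ndufb1. By limma, 0 of the 34 passed an adjusted p under 0.05 (the lowest was 0.274), and 4 were lower and 0 higher at an unadjusted p under 0.05. Over all genes the shares at that unadjusted level were 4.97% lower and 2.9% higher. Every Tg array lay below every wt array for 8 subunits (23.5%, against 8.81% of all genes), and every Tg array above every wt array for 0 (5.2% of all genes). These 8 were Ndufs7, Ndufb6, Ndufv2, Ndufa3, Ndufa5, Ndufa6, Ndufb5 and Ndufc2.

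Most of the subunits are read by bright probesets. Of all genes, the 1386 brightest had a mean signal of at least 3024.4, and 31 of the 34 subunits were among them. Genes of that brightness were themselves mostly lower in Tg mice. Of the 31 bright subunits 29 were lower, with a median log2 fold change of -0.09, against 67.5% of the bright genes, with a median of -0.06. The share at an unadjusted p under 0.05 and lower was 12.9% in these 31 subunits and 11.9% in the bright genes. The 3 dimmer subunits, Ndufb1, Ndufb4 and Ndufs4, had the 3 highest log2 fold changes.

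**Figure D1:**
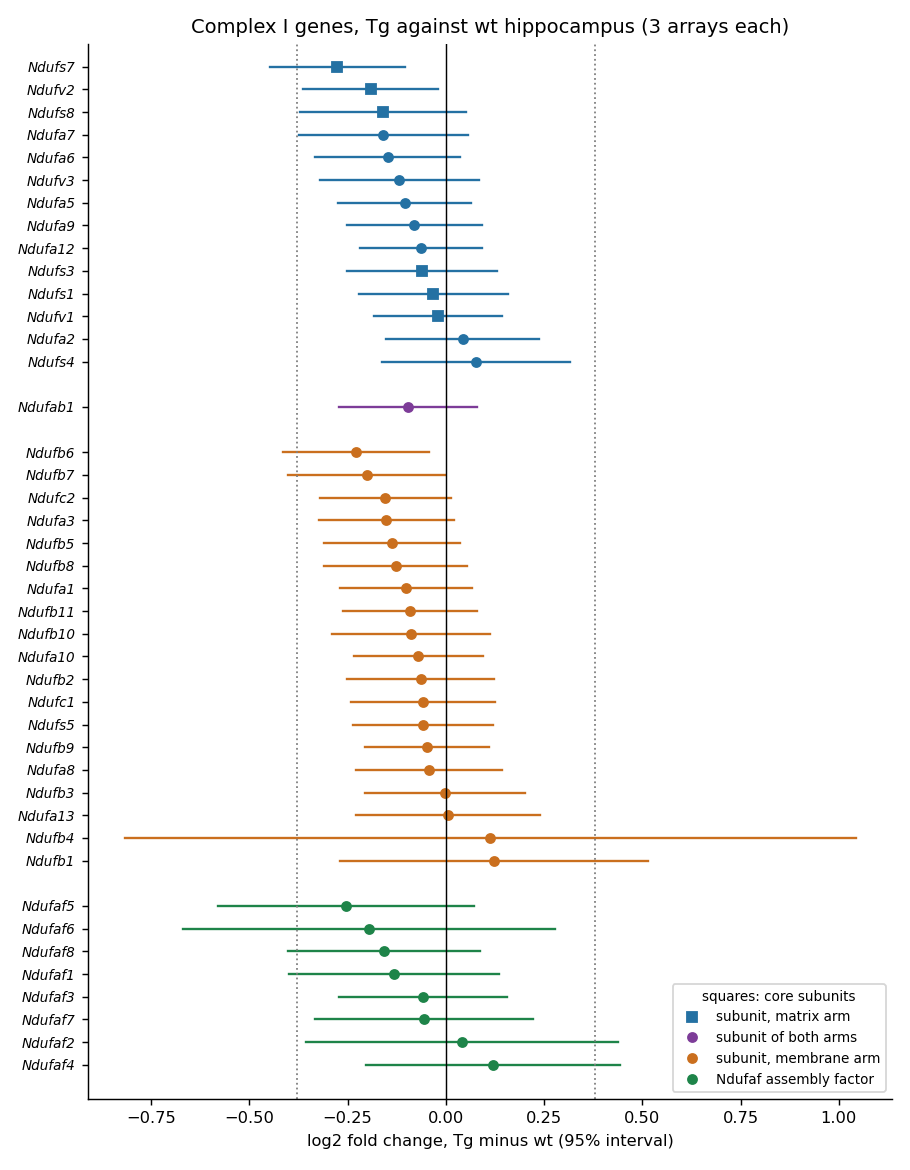
Log2 fold change of each of the 34 complex I subunits and 8 Ndufaf assembly factors, Tg minus wt, with its 95% interval from limma (n = 3 arrays each). Squares mark the core subunits and dotted lines mark 1.3-fold in either direction. 29 subunits and 6 assembly factors lie left of 0, and the interval of Ndufb4 is the widest.

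The subunits varied little between arrays. The median SD between arrays of one group was 0.09 on the log2 scale for the subunits, against 0.20 for all genes and 0.10 for the bright genes. The 95% interval of the difference stayed within 1.3-fold in either direction, the fold that the study required, for 29 of the 34 subunits. It reached past that limit for Ndufs7, Ndufb6 and Ndufb7 on the lower side, for Ndufb1 on the higher side and for Ndufb4 on both.

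The core subunits carry the redox chemistry. All 6 measured were lower in Tg mice (4 of 6 after quantile normalization), with a median log2 fold change of -0.11, and none was called. Ndufs7 holds the last iron-sulphur cluster before ubiquinone and had the lowest value of the 34 subunits. The gene lies on chromosome 10, from 80249105 to 80256794 (GRCm38.p6). Its signal was 3904.1, 3736.6 and 4061.3 in the Tg mice, against 4770.7, 4796.2 and 4603.4 in the wt mice. The groups did not overlap, and the highest Tg array lay well below the lowest wt array. The log2 fold change was -0.28 ± 0.08 (SE, n = 3 each; 95% interval -0.45 to -0.10), a difference of -17.4%, with an unadjusted p of 0.00434 and an adjusted p of 0.274 in limma. The second Ndufs7 probeset had a log2 fold change of -0.13 (adjusted p = 0.651), with overlapping groups.

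Ndufv2, an iron-sulphur subunit of the NADH-oxidizing module, had a signal of 7343.8, 8075.5 and 7340.1 in the Tg mice, against 8398.5, 9251.1 and 8332 in the wt mice. Again no Tg array reached the lowest wt array, and wt 2 was the highest of the 6. Its log2 fold change was -0.19 ± 0.08 (SE; adjusted p = 0.467). The 2 other Ndufv2 probesets gave -0.07 and 0.13, so the direction depended on the probeset. Ndufs8, which carries a pair of iron-sulphur clusters close to the membrane arm, averaged 8329.5 ± 601 in Tg and 9341.6 ± 1190 in wt mice (SD), with a log2 fold change of -0.16 (adjusted p = 0.628) that was -0.06 without wt 1. The groups overlapped, and wt 1, at 10705.7, was far above the other 5 arrays, which ran between 7964.3 and 9022.9. An almost equally bright Ndufs8 probeset gave -0.225 without overlap (adjusted p = 0.428). The remaining Ndufs8 probesets gave -0.10, 0.02, -0.02 and -0.04, with overlap.

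The other core subunits differed less. Ndufv1, which binds NADH and the flavin, had a signal of 5125.2, 5175.1 and 5197.7 in the Tg mice, against 5235.5, 5426.4 and 5063.3 in the wt mice, which gives -0.02 as log2 fold change (95% interval -0.18 to 0.14; adjusted p = 0.948). Ndufs1, which holds several iron-sulphur clusters of the NADH module, had 3138.7, 3536.2 and 3423.3 in the Tg mice, against 3293.5, 3626.8 and 3401.5 in the wt mice, which gives -0.03 as log2 fold change (95% interval -0.22 to 0.16; adjusted p = 0.929). Ndufs3, a core subunit without a redox centre, averaged 4647.1 ± 122 in Tg and 4859.2 ± 459 in wt mice, which gives -0.06 as log2 fold change (adjusted p = 0.854). All 3 genes had overlapping groups at the brightest probeset. Their sign turned without wt 2 and, for Ndufs1 and Ndufv1, under quantile normalization. The other Ndufv1 probesets gave -0.11, without overlap, and -0.08, with overlap.

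Among the accessory subunits of the membrane arm, Ndufb6 and Ndufb7 were lowest. Ndufb6 had a signal of 4672.2, 4827.7 and 4081.1 in the Tg mice, against 5284.6, 5238.2 and 5348.5 in the wt mice. The wt arrays lay close together and all Tg arrays lay below them, Tg 3 the furthest. The log2 fold change was -0.23 ± 0.09 (SE; adjusted p = 0.421), but the second Ndufb6 probeset, also bright, gave 0.13 (adjusted p = 0.653). Ndufb7, which lies on the intermembrane-space face of the arm, had 5449.7, 5074.3 and 4700.1 in the Tg mice, against 6345.7, 5901.9 and 5283.8 in the wt mice. Tg 1 overlapped wt 3, and the log2 fold change was -0.20 ± 0.09 (SE; adjusted p = 0.515), and -0.06 against wt 3 alone. The second Ndufb7 probeset gave -0.06 (adjusted p = 0.854), with overlapping groups.

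**Figure D2:**
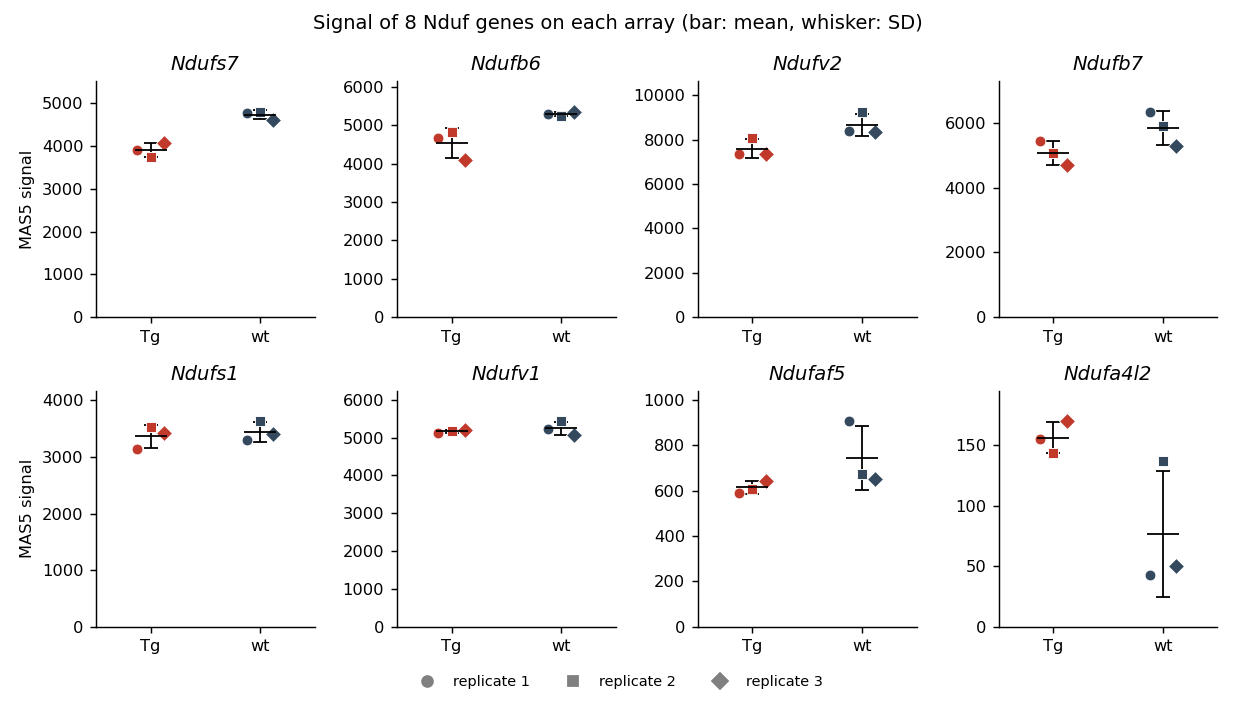
MAS5 signal of 8 Nduf genes on each array, Tg left of wt, with symbols for the replicate, a bar for the group mean and whiskers for the SD (n = 3). The Tg and wt points are apart for Ndufs7, Ndufb6 and Ndufv2, overlap for Ndufb7, Ndufs1 and Ndufv1, and Ndufa4l2 is higher in Tg mice at a low signal.

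The upstream sequences of 3 of the 4 genes that were lower at an unadjusted p under 0.05 are shown, since these genes lead the list and nuclear respiratory genes are commonly described as targets of NRF1 and GABP. The window for Ndufs7 starts inside its gene model and is not shown. Each run is the 250 bases before the first base of the gene in RefSeq (GRCm38.p6), written 5′ to 3′ on the gene's strand. Ndufb6 lies on the minus strand, at chr4:40279422-40279671, Ndufb7 on the plus strand, at chr8:83566508-83566757, and Ndufv2 on the minus strand, at chr17:66101560-66101809. Capitals mark matches on either strand to CCGGAAG (the Ets core bound by GABPA), GCATGCGC (NRF1), AAGATGGCG (YY1), TCAAGGTCA (estrogen-related receptors), GGGCGG (Sp1) and TATAAA.
Ndufb6: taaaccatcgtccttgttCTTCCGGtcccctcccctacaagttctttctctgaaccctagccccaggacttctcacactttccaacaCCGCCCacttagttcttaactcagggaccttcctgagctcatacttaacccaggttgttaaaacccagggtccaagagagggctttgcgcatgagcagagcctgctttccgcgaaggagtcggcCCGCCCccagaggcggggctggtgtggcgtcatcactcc
Ndufb7: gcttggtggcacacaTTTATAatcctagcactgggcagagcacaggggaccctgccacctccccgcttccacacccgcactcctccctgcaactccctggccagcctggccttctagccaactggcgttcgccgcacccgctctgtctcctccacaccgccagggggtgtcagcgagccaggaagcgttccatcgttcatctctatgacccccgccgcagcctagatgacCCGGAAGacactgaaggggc
Ndufv2: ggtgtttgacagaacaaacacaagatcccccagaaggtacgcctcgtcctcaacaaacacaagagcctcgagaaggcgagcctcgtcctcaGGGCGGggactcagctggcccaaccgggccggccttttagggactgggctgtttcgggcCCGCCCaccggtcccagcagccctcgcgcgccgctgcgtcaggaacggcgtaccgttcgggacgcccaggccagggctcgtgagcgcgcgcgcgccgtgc
In the run of Ndufb6 the capitals are 1 GABPA and 2 Sp1 matches, and in that of Ndufv2 2 Sp1 matches. The run of Ndufb7 has a GABPA match 20 bases before the start. Its TATAAA match lies 235 bases before the start, on the other strand. Of the 34 subunits, 31 matched a promoter entry. CCGGAAG was found in 3 of these 31 (9.68%) and in 7.07% of 27025 promoters of the same length, GCATGCGC in 2 (6.45%) and in 2.31%, GGGCGG in 13 (41.9%) and in 33%, and TATAAA in 4 (12.9%) and in 13%. AAGATGGCG and TCAAGGTCA were found in 0 of the 31, and in 0.592% and 0.366% of all promoters. The promoters of Ndufb6 and Ndufb7 thus share the Ets core, at different distances from the start, and that of Ndufv2 does not hold these letters in the window. No matches overlapped in the printed runs.

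The remaining subunits filled in the same narrow range. In the matrix arm 12 of 14 subunits were lower in Tg mice, with a median log2 fold change of -0.09, and in the membrane arm 16 of 19, with a median of -0.07. Ndufab1, the mitochondrial acyl carrier protein that sits in both arms, had a log2 fold change of -0.10 (adjusted p = 0.733). Ndufa3, Ndufb5 and Ndufc2 of the membrane arm had log2 fold changes of -0.15, -0.14 and -0.15 without overlap of the groups, and Ndufa5 and Ndufa6 of the matrix arm had -0.10 and -0.15. Their adjusted p values lay between 0.55 and 0.691. At the other probesets of these genes with a mean signal of at least 1000 the groups overlapped. There Ndufc2 had -0.0194 and -0.0217, Ndufa5 -2e-04, Ndufa3 -0.09 and Ndufb5 -0.15. Ndufa6 has no other single-gene probeset. Ndufa2, Ndufa13 and Ndufb3 were close to 0, at 0.04, 0.01 and -0.0018. The other 14 subunits were all lower with overlapping groups at the brightest probeset, between -0.16 for Ndufa7 and -0.04 for Ndufa8. Further bright probesets of these genes went past that range both ways. Those of Ndufb11 gave -0.21 and -0.25 (adjusted p = 0.453 and 0.506 in limma), and 1 of Ndufa7 gave 0.14 (adjusted p = 0.795), all with overlap.

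None of the 3 highest subunits differed beyond its error. Ndufb1 had a signal of 515, 429.6 and 463.8 in the Tg mice, against 430.4, 532.3 and 343.4 in the wt mice, which gives 0.12 ± 0.18 as log2 fold change (SE; adjusted p = 0.858). The highest and the lowest array were both wt, and without wt 3 the value was -0.03. Ndufb4 averaged 72.5 ± 28.3 in Tg and 63.3 ± 13.9 in wt mice at its only single-gene probeset, near the lowest signal kept, and its log2 fold change of 0.11 had an SE of 0.43. A brighter probeset shared by Ndufb4 and its close copies Ndufb4b and Ndufb4c had 6768.7, 6680.8 and 6672.4 in the Tg mice, against 7296.9, 7277.4 and 7142.6 in the wt mice, with no overlap and a log2 fold change of -0.11 (adjusted p = 0.642). Ndufs4, an accessory subunit whose loss in mice causes a Leigh-like encephalopathy, averaged 2103.4 ± 185 in Tg and 1996.2 ± 215 in wt mice, which gives 0.08 as log2 fold change (adjusted p = 0.853), and -0.03 in the mean of its kept probesets.

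The 8 Ndufaf assembly factors varied more between arrays than the subunits. Of them, 6 were lower in Tg mice, with a median log2 fold change of -0.09, 0 were called by limma or Cyber-T, and 0 reached an unadjusted p under 0.05 in limma. The median SD within groups was 0.16, and the 95% interval stayed within 1.3-fold for 2 of 8. Ndufaf5 hydroxylates an arginine of the Ndufs7 protein in human cells. It had a signal of 590.9, 608.4 and 644 in the Tg mice, against 904.5, 675.4 and 650.6 in the wt mice. It was the only factor without overlap, by a narrow margin between Tg 3 and wt 3, and wt 1 was far above the rest. The log2 fold change was -0.25 ± 0.15 (SE; adjusted p = 0.618), -0.11 without wt 1 and -0.08 against wt 3 alone.

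Ndufaf8, which stabilizes Ndufaf5 in human cells, had a log2 fold change of -0.16 (adjusted p = 0.677). Ndufaf1, part of the intermediate assembly complex that builds the membrane arm, had -0.13, and Ndufaf6 had -0.20 at a signal of 223.8 to 363.7 in Tg and 271.9 to 380.6 in wt mice. Ndufaf3 and Ndufaf4 act together on the ubiquinone module and differed in sign, at -0.06 and 0.12. Ndufaf4 had 1313.5, 1319.3 and 1421.8 in the Tg mice, against 1606.6, 1032.3 and 1151.7 in the wt mice, so that all Tg arrays fell inside the wt range. Its second probeset gave -0.22 (adjusted p = 0.661). Ndufaf7, a methyltransferase, and Ndufaf2, a paralog of the subunit Ndufa12, had -0.06 and 0.04.

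Ndufa4 and its paralog behaved unlike each other. Ndufa4, a subunit of cytochrome c oxidase, had a signal of 11562.6, 11935.4 and 10674.7 in the Tg mice, against 12276.7, 12054.1 and 10863 in the wt mice, which gives -0.04 as log2 fold change (95% interval -0.21 to 0.13; adjusted p = 0.892). Ndufa4l2, which hypoxia induces in many cell types, had 155.5, 143.7 and 169.6 in the Tg mice, against 43, 136.7 and 50 in the wt mice. Every Tg array was above every wt array, wt 2 by little, and wt 1 was below the lowest mean signal kept by the filter, 48.8. The log2 fold change was 1.03 ± 0.39 (SE), with an unadjusted p of 0.021 and an adjusted p of 0.423. At the brightest probesets it was the only Nduf gene that met the study's fold and unadjusted p limits on these values.

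The small shift of the subunits was not carried equally by the arrays. As a mean log2 deviation from the 6-array mean of each gene, the 34 subunits stood at -0.03, -0.01 and -0.09 on Tg 1, Tg 2 and Tg 3, against 0.05, 0.08 and -0.01 on wt 1, wt 2 and wt 3. Tg 2 and wt 3 were level. Tg 3 was the lowest array for 19 subunits, a share of 55.9% against 20.5% of all genes and 27.6% of the bright genes. The highest array was wt 2 for 17 subunits (50%), against 21.1% of all genes and 33.6% of the bright genes, and wt 1 for 10 (29.4%), against 21% and 22.9%. Those are the arrays with the high 18S signal, whose part in the result was not tested. Against wt 3 alone, without both wt 1 and wt 2, 26 subunits were lower, with a median log2 fold change of -0.04, against -0.03 for all genes. Without Tg 3, 28 were lower with a median of -0.05, and without wt 2, 24 were lower with a median of -0.06. The core subunits had a median of -0.07 without wt 2. The assembly factors followed another order, with Tg 1 at -0.14 and wt 1 at 0.19 as the extremes, and their median was -0.03 without Tg 1 and 0.01 against wt 3 alone.

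**Figure D3:**
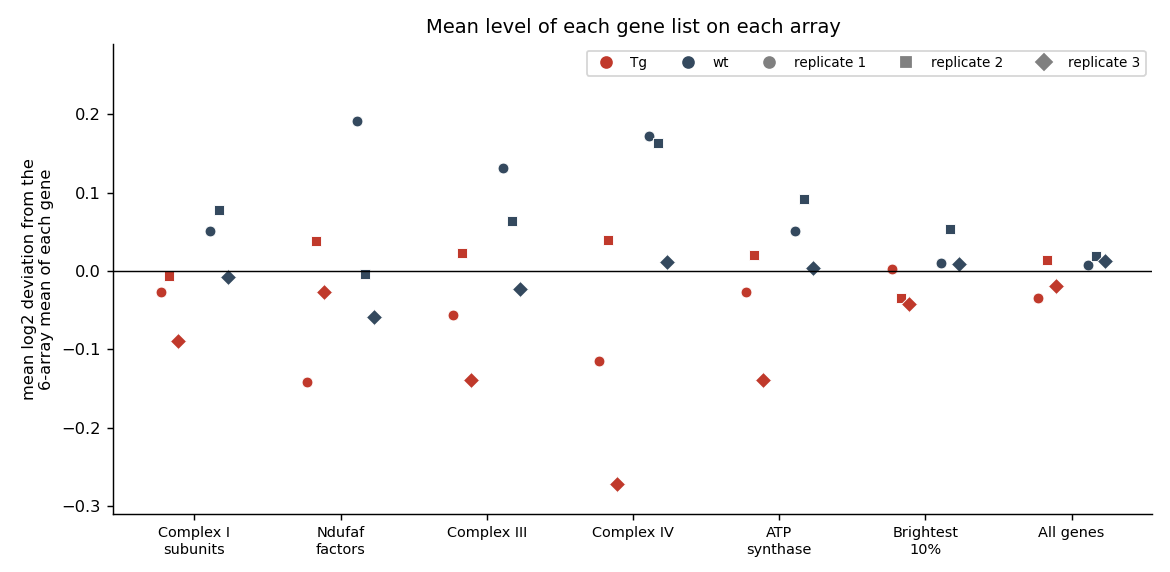
Mean log2 deviation of each gene list from the 6-array mean, per array, Tg left of wt, with symbols for the replicate. For the complex I subunits Tg 3 is lowest at -0.09 and wt 2 highest at 0.08, while Tg 2 and wt 3 are level at -0.01. Complex IV spreads the most.

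The scaling of the arrays also entered the count. The subunits were lower in 29 of 34 cases as deposited, 23 of 34 (67.6%) after quantile normalization and 31 of 34 (91.2%) after centring on the median of the kept probesets. Under the same scalings 59.3% and 68% of all genes, and 53% and 83.3% of the bright genes, were lower. The median log2 fold change was -0.03 after quantile normalization, where all genes had -0.05 and the bright genes -0.01, and -0.15 after centring, where all genes had -0.10 and the bright genes -0.12. The assembly factors were lower in 7 of 8 under both.

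The rest of the respiratory chain gives a frame for these values. Complex II had 2 of 4 subunits lower in Tg mice (median log2 fold change 0.00; 1 of 4 after quantile normalization and 3 of 4 after centring). Its median was -0.07 without wt 1, -0.07 against wt 3 alone, and -0.16 in the mean of all kept probesets of a gene. Complex III had 8 of 9 lower (-0.13), complex IV 13 of 15 (-0.16) and ATP synthase 13 of 16 (-0.09). After quantile normalization these 3 lists had 7 of 9, 12 of 15 and 10 of 16 lower. Limma called no gene of these complexes. Against wt 3 alone, the medians were -0.04 for the complex I subunits, -0.02 for complex III, -0.04 for complex IV and -0.04 for ATP synthase. No difference between the lists was tested. Atp5d, a subunit of the ATP synthase central stalk, had 9423.6, 9720.1 and 8726 in the Tg mice, against 12008.8, 11970.4 and 11553.7 in the wt mice, which gives -0.35 as log2 fold change (adjusted p = 0.206). Also lower at an unadjusted p under 0.05 in limma were Sdhb of complex II (-0.17, without overlap) and Atp5e (-0.24). So were 4 genes of complex IV, of which the 3 with the lowest p were Cox5a, Cox6b1 and Cox6a2 (-0.23, -0.20 and -0.54). Cox6a2 had low signals with overlapping groups, at 172.3 to 274.2 in Tg and 266.9 to 373.4 in wt mice. No gene of these complexes was higher at that level. Of the 10 complex I assembly factors with other symbols, 6 were lower (median -0.03), of 13 regulators of mitochondrial gene expression 7 (-0.02), and of 13 other mitochondrial proteins 9 (-0.02; 6 of 13 after quantile normalization). The median of these other mitochondrial proteins was -0.07 without wt 1, where the subunits had -0.08. Among these proteins Hspe1 (-0.29) and Vdac1 (-0.19) were lower at an unadjusted p under 0.05 in limma, with overlapping groups, and none was higher.

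**Figure D4:**
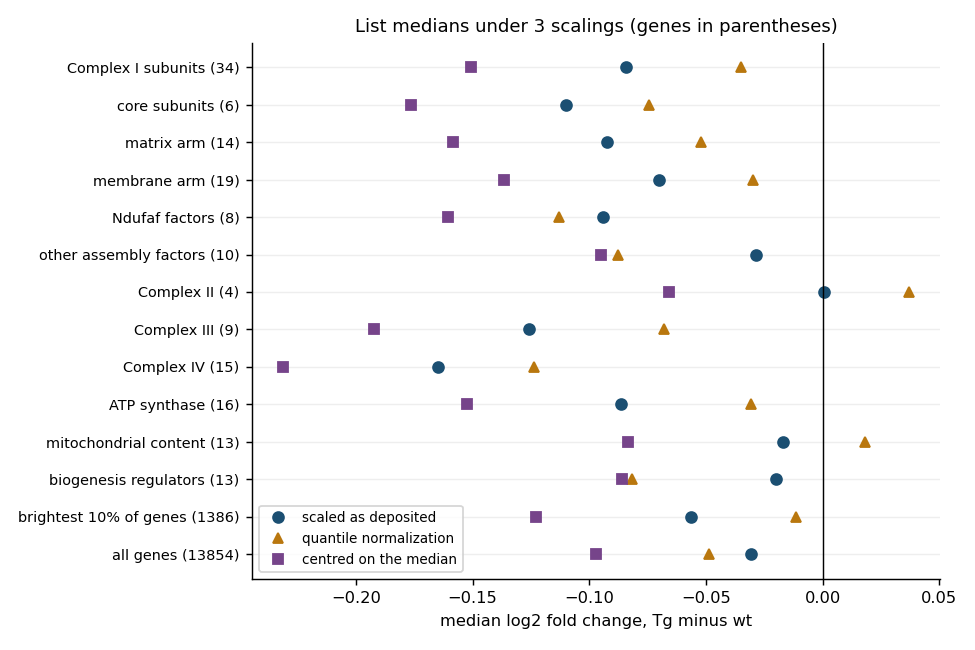
Median log2 fold change, Tg minus wt, of complex I and other mitochondrial gene lists under 3 scalings, with the number of genes in parentheses. The complex I subunits lie at -0.08 as deposited, -0.03 after quantile normalization and -0.15 after centring, and all genes shift with the scaling too.

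Cell type markers also had group differences, none called by limma. Cyber-T called 2 dentate granule, 1 CA1 pyramidal and 1 interneuron marker, and 2 of the subiculum and neighbouring cortex. It called none in the other marker lists, and 25 of all 13854 genes. In bulk tissue, fewer cells of a type and less messenger RNA per cell cannot be told apart. Dentate granule markers were higher in Tg mice in 10 of 10 cases (9 of 10 after centring), with mean log2 deviations of 0.13 to 0.27 on the Tg arrays and -0.40 to 0.06 on the wt arrays. Markers of the subiculum and neighbouring cortex were lower in 7 of 7, at -0.50 to -0.21 in Tg and 0.23 to 0.46 in wt mice, and interneuron markers in 7 of 7, at -0.31 to -0.03 in Tg and 0.09 to 0.25 in wt mice. General neuronal markers were lower in 5 of 8 (4 of 8 after quantile normalization), at -0.12 to 0.03 in Tg and -0.0022 to 0.10 in wt mice. Astrocyte markers were lower in 7 of 8 (median log2 fold change -0.14), 4 of them without overlap, with mean deviations of -0.09 to 0.01 in Tg and -0.02 to 0.11 in wt mice. Striatal markers were lower in 3 of 4, at -0.38 to -0.28 in Tg and 0.23 to 0.41 in wt mice. Choroid plexus markers were lower in 7 of 7 and spread widely, at -2.07 to 1.38 in Tg and 0.22 to 0.48 in wt mice, with the lowest value on Tg 3, the array where the subunits were lowest. CA1 pyramidal markers were lower in 2 of 5, with a median log2 fold change of 0.0072, but they split, running between -0.90 and 0.33. At an unadjusted p under 0.05 in limma, 2 of them were lower and 1 was higher. Oligodendrocyte markers were lower in 4 of 7 (median -0.07), microglia markers in 5 of 8 (-0.12) and endothelial markers in 6 of 7 (-0.16). The mean deviations of the oligodendrocyte markers were -0.38 to 0.18 in Tg and -0.17 to 0.13 in wt mice. Tg 3 was the lowest array for oligodendrocyte, microglia and striatal markers too, but not for the other marker lists. The part of any of these marker lists in the level of the complex I genes was not tested.

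Probesets of one gene did not always have the same sign. Of 21 Nduf genes with several kept probesets, 9 had both signs, and of the 16 with several at a mean signal of at least 1000, 4 did (Ndufa7, Ndufb6, Ndufs8 and Ndufv2). Over all 73 kept subunit probesets, 61 were lower in Tg mice, against 46.8% of all 31076 kept probesets. At the brightest probeset per gene, 55.9% of all genes and 67.5% of the bright genes were lower. A share for all kept probesets of like brightness was not computed, and several probesets of a gene are not independent measures. Of the subunit probesets, 51 of 58 were lower at a mean signal of at least 1000 and 10 of 15 below it.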

How the data were processed

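Hippocampal RNA of 3 Tg and 3 wt mice was measured on 1 array per mouse, so replicates are separate animals. The deposited intensities are linear MAS5 signals, 1 per probeset and array, as the authors computed them (MAS5 is credited to the submitters' processing notes). The trimmed mean per array was 499.9 to 500.6. The study's RMA values, SAM, scanned images, PCR and immunoblots were not analysed here. Of 45101 probesets, 64 controls were set aside, and 31% of the rest, those of lowest mean log2 level, were left out, leaving 31076. Log2(signal + 16) was fitted with limma 3.58.1 (intensity trend) in R 4.3.3 with Benjamini-Hochberg adjustment across the 31076. Because of the constant, fold changes of dim probesets are understated. A gene was its brightest kept probeset annotated to that gene alone, by the platform annotation. Cyber-T used a window of 101 and a confidence of 10. Named were Nduf genes at an unadjusted p under 0.05, the 3 lowest and 3 highest subunits, and the lowest and highest Ndufaf gene. So were all core subunits, Ndufa4 and Ndufa4l2, and in each other mitochondrial list up to 3 genes at an unadjusted p under 0.05. Single genes of the cell type marker lists were not named. Any other gene was picked with its values in view. The members and lists were chosen with earlier results of these data known. RefSeq promoters were matched by symbol for 39 of 44 genes, 1 window per gene. Scripts were tested on simulated data. The alternatives were constants of 1 and 64, quantile normalization, centring, no filter, the brightest 50%, limma without the trend, Cyber-T, the study's p and 1.3-fold limits, the replicate number as a block, all probesets of a gene, and each array left out, or both wt 1 and wt 2. Figures used matplotlib 3.10.9. The number of arrays limits the precision.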

Additional observations from a re-analysis of the deposited data

How the results depend on the processing

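No subunit and no Ndufaf gene was called under any of the alternatives by adjusted p. The number of called probesets over the whole array was 0 by limma, 65 by Cyber-T, 1 with the replicate number as a block and 0 to 6 with one array left out, and 2148 met an unadjusted p of at most 0.05 and 1.3-fold. The block changed no call among the Nduf genes. Deviations of same-numbered arrays correlated at -0.0159, 0.00779 and 0.0333, so no array-wide pairing showed. A pairing that affects few genes would not show in these correlations. The subunits lower in Tg mice numbered 29 of 34, and 24 to 31 with one array left out. Their median log2 fold change of -0.084 became -0.035 after quantile normalization, -0.151 after centring, -0.038 without both wt 1 and wt 2, and -0.114 to -0.053 with one array left out. In the mean of all kept probesets of a gene it was -0.065, with 28 subunits lower, and the median of all genes was 0.0071. Leaving out wt 1 and wt 2 keeps a single wt array, which is assumed to vary like the Tg arrays.

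Signs of genes near 0 turned in places. After quantile normalization Ndufa4 was at 0.025, Ndufs1 at 3e-04 and Ndufv1 at 0.017. With one array left out, Ndufaf4 ran between -0.010 (without wt 2) and 0.305, Ndufa4 between -0.096 and 0.0041 (without Tg 3), Ndufb1 between -0.031 (without wt 3) and 0.274, Ndufb4 between -0.038 (without Tg 1 or Tg 3) and 0.416, Ndufs1 between -0.068 and 0.017 (without Tg 1, and 0.0063 without wt 2), Ndufs3 between -0.107 and 0.0155 (without wt 2), and Ndufv1 between -0.045 and 0.0048 (without wt 2). Against wt 3 alone, Ndufa4 was at 0.067, Ndufv1 at 0.029 and Ndufb4 at -0.166. In the mean of all kept probesets of a gene, Ndufaf4 was at -0.052 and Ndufs4 at -0.026. Ndufs7, Ndufb6, Ndufb7, Ndufv2, Ndufs8, Ndufaf5 and Ndufa4l2 kept their sign under every alternative run, but not their size. Ndufs7 ran between -0.34 and -0.20, Ndufs8 between -0.23 and -0.058 (without wt 1), Ndufaf5 between -0.34 and -0.081 (wt 3 alone), Ndufb7 between -0.27 and -0.061 (wt 3 alone), Ndufb6 between -0.29 and -0.051 and Ndufv2 between -0.26 and -0.043 (both in the mean of probesets), and Ndufa4l2 between 0.71 (constant of 64) and 1.46 (without wt 2). The cause of these shifts was not tested. With the brightest 50% of probesets Ndufb4 and Ndufa4l2 had no value. Dim probesets limit Ndufb4, Ndufb1 and Ndufa4l2.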

Other observations

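Several Nduf genes are read mainly by probesets that also match a close copy and so entered no count above. The brightest probeset shared by Ndufa11 and Ndufa11b had a signal of 5717.3, 5412.1 and 4146.6 in the Tg mice, against 4597.4, 4991.4 and 5610 in the wt mice, which gives -0.0016 ± 0.12 as log2 fold change (SE; adjusted p = 0.998). The probeset shared by Ndufs6 and Ndufs6b had 3202.4, 3569.9 and 3202.8 in the Tg mice, against 3649.7, 3621.1 and 3780.1 in the wt mice. No Tg array reached the lowest wt array there, and the log2 fold change was -0.15 (adjusted p = 0.604). Ndufa11 is an accessory subunit of the membrane arm, and Ndufs6 a zinc-binding subunit of the matrix arm.

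The mitochondrially encoded core subunit ND5, a proton pump of the membrane arm that was chosen after its values were seen, had a signal of 56313.9, 52257.5 and 49134.5 in the Tg mice, against 49913.6, 55767.7 and 57995.4 in the wt mice. The groups overlapped over most of their range, and the log2 fold change was -0.05 ± 0.08 (SE; adjusted p = 0.857).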
